A study of Mus musculus with 27 samples.

Results

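Of the 51906 genes in the RNA-seq count table, 10 were followed here: 6 nuclear receptors that pair with the retinoid X receptor (Vdr, Ppara, Ppard, Pparg, Nr1h2 and Nr1h3) and 4 genes that these receptors are known to control (Cyp24a1, Abca1, Angptl4 and Plin2). They were taken by symbol. All 10 had rows in the count table and in all 4 single cell matrices. The libraries came from cultured mouse hair follicle stem cells (HFSCs), the long-lived cells of the hair follicle bulge. HFSCs were sorted from resting-phase (telogen) back skin at postnatal day 55, propagated on inactivated feeder cells, and moved to 3D cultures. The wild-type and the Sox9-CreER;Rxra-fl/fl;R26-YFP genotype (Rxra cKO), in which tamoxifen-activated Cre removes Rxra from cells that express Sox9, gave 2 mice each. Each mouse's cells were cultured in medium with fetal bovine serum (FBS) and in medium with all-trans retinoic acid and a protein kinase C inhibitor (atRA+PKCi). By the study's methods, the atRA+PKCi medium replaces serum with the B-27 supplement and also holds a cholesterol complex. A difference between media covers all of these. A ROCK inhibitor is listed both for this medium and for the study's serum medium. Wild-type back skin at postnatal day 32 (AnaVI, a growing phase of the hair cycle) and HFSC cultures from the same 2 mice gave the single cell matrices. The study compared these cultures to learn how retinoid receptors act on HFSC identity.

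RXRs bind DNA as heterodimers. The retinoic acid receptors, the vitamin D receptor (Vdr), the PPARs (Ppara, Ppard and Pparg, which bind fatty acids) and the LXRs (Nr1h3, or LXR alpha, and Nr1h2, or LXR beta, which bind oxysterols) all need an RXR to bind their response elements. In skin, Vdr is required for the hair cycle after the first coat, Ppard is known in keratinocyte differentiation and wound repair, Pparg is needed for sebaceous glands and fat, and the LXRs control sterol efflux and lipid synthesis. Their classical targets are genes that these receptors are known to control, and receptor activity itself was not measured here. Cyp24a1 encodes the enzyme that inactivates the vitamin D hormone, and Abca1 a cholesterol exporter. Angptl4 encodes a secreted inhibitor of lipoprotein lipase, and Plin2 a protein that coats lipid droplets.

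Response elements of these heterodimers are repeats of the hexamer AGGTCA, spaced by 1 base for the PPARs (DR1, AGGTCANAGGTCA), 3 for Vdr (DR3, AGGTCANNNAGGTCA) and 4 for the LXRs (DR4, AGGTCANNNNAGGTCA). RefSeq start sites on GRCm38.p6 gave 11 promoters for 8 of the 10 genes; there was none for Cyp24a1 and Angptl4. In the 250 bases before the start, with up to 2 mismatches and on both strands, DR1 matched 1 of the 11 promoters (Plin2) against 3.24% of 32851 promoters of that length, and DR3 and DR4 matched 0 of 11 against 2.60% and 2.57%. The exact hexamer was in 3 of 11, those of Plin2 and 2 of Pparg, against 14.0%, and it lies inside the DR1 match of Plin2. The promoters of Plin2 (chr4:86670060-86670309, minus strand) and Abca1 (chr4:53159896-53160145, minus strand) are shown because these genes changed in opposite directions with genotype, and capitals mark the DR1 match of Plin2.
Plin2: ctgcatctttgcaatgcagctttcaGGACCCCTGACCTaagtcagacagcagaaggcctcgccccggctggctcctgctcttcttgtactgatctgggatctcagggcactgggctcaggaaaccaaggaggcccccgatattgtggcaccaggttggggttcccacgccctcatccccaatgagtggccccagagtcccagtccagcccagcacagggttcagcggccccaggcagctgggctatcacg
Abca1: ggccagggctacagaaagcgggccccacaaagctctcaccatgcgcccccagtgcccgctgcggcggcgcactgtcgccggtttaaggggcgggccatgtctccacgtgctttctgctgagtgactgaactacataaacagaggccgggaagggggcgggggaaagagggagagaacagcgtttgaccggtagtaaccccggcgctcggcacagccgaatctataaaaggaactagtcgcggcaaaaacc
The match of Plin2 lies at -225 to -213 bases from the start site and reads AGGTCAGGGGTCC on the strand opposite to the gene. Abca1 had no match with up to 2 mismatches. LXRs are known to act on Abca1 through a DR4 near its start, so DR4 was also searched with up to 3 mismatches, a choice made after the data were seen. It then matched 1 of the 11 promoters, that of Abca1, against 18.5% of all promoters, at -67 to -52 bases from the start site, and reads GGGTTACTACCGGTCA on the strand opposite to the gene. These matches describe letters and are not evidence of binding.

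Rxra, the targeted gene, was measured first. Its CPM (counts scaled to a common library size with TMM factors) in the wild-type were 149 and 122 in FBS and 147 and 143 in atRA+PKCi, and in the libraries labelled Rxra cKO they were 97.2 and 95.7 in FBS and 148 and 145 in atRA+PKCi. In FBS it was lower in the Rxra cKO libraries (log2 fold change -0.49 ± 0.092 SE, adjusted p = 0.00264), and in atRA+PKCi the groups overlapped (0.01, adjusted p = 0.927). A count per gene includes the exons that a conditional allele leaves, so these values do not test the deletion, and directions below refer to the genotype on the labels. Its relative Rxrb was detected in every library (29.0 to 51.8 CPM), and Rxrg had between 0 and 7 counts. Of other markers of these cells, Krt5 lay between 8958 and 12333 CPM and Sox9 between 70.1 and 173, whereas Krt15 went from 3.65 and 4.75 in wild-type FBS to 4430 and 4576 in wild-type atRA+PKCi and to 245 and 251 in Rxra cKO atRA+PKCi. Krt14 and Nfatc1 did not rise with Krt15. Krt14 was 20524 to 22350 CPM in wild-type FBS and 5718 to 5972 in wild-type atRA+PKCi. Nfatc1 was 4.60 to 6.42 and 0.834 to 1.49 CPM in these groups, and 2.83 to 5.19 in Rxra cKO atRA+PKCi. Cd34 stayed between 0.385 and 2.91 CPM and Lhx2 at or under 0.0962, so these bulge markers were low in culture.

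Of the 10 genes, 8 passed the filter on low counts, and Cyp24a1 and Ppara did not. Per kilobase of exon, the scale on which genes can be compared, Plin2 was the highest in each group (group means of 25.9 to 68.8 CPM per kb). Ppard (8.90 to 27.6), Nr1h2 (14.3 to 19.5) and Vdr (10.5 to 13.3) followed, whereas Angptl4 (0.464 to 5.90), Abca1 (0.173 to 2.36), Pparg (0.0922 to 1.36) and Nr1h3 (0.0376 to 0.202) were lower. The receptors of highest level in culture were thus Ppard, Nr1h2 and Vdr, 1 from each branch. Ppara (chr15:85734983-85802819, plus strand) had 2 and 1 counts in FBS and 6 and 6 in atRA+PKCi in the wild-type cultures, and 6 and 4 and then 2 and 0 in the Rxra cKO. Cyp24a1 (chr2:170482708-170497145, minus strand) had no more than 2 counts in any library. These are near the floor of 3 counts (0.0786 to 0.116 CPM), and no fold is given for either.

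**Figure D1:**
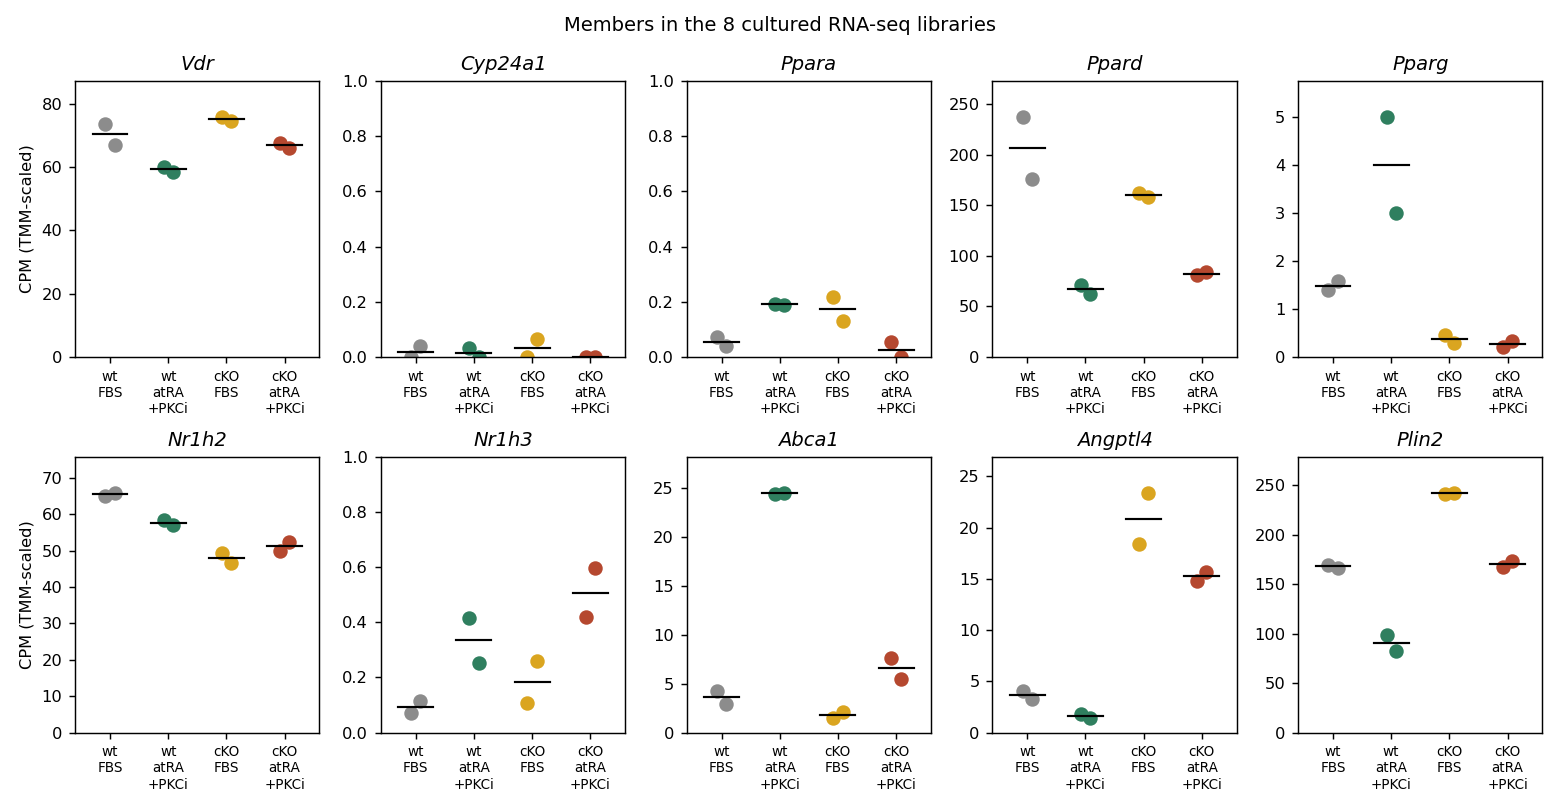
The 10 genes in the 8 RNA-seq libraries. Each panel has its own y axis in CPM (TMM-scaled, from 0), points are the 2 mice of a group and bars the group mean. Abca1 is highest in wild-type atRA+PKCi (24.4 and 24.5 CPM), Angptl4 in the Rxra cKO groups (14.8 to 23.4), and Cyp24a1 and Ppara stay near 0.

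In wild-type cultures, the change from FBS to atRA+PKCi lowered Ppard and raised Abca1, and 7 of the 8 genes tested changed (2 higher, 5 lower). The background is wide: 53.9% of all 15965 genes tested were called in this contrast, and the median log2 fold change was -0.21 over the 8 genes and 0.03 over all. In the libraries labelled Rxra cKO, 4 of 8 changed (1 higher, 3 lower) against 43.0% of all genes, with medians of -0.31 and 0.02. In bulk libraries, fewer cells of a type and less RNA per cell cannot be told apart. Both medium contrasts and both genotype contrasts share libraries, so their values stand side by side and are not independent.

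Vdr (chr15:97854425-97910630, minus strand, GRCm38) differed little between the groups. It was at 73.7 and 66.8 CPM in wild-type FBS and 60.1 and 58.5 in wild-type atRA+PKCi, and at 75.7 and 74.5 and then 67.5 and 66.1 in the Rxra cKO libraries. The wild-type groups did not overlap (-0.24 ± 0.068, adjusted p = 0.0147), but leaving out wild-type FBS replicate 1 (adjusted p = 0.0550) or replicate 2 in atRA+PKCi (0.0935) ended this call. In the Rxra cKO it was -0.17 ± 0.068 (adjusted p = 0.0739; 0.0284 and 0.0297 when either wild-type FBS replicate was left out). Between genotypes Vdr differed by 0.10 in FBS (adjusted p = 0.290) and 0.17 in atRA+PKCi (adjusted p = 0.0712; 0.0272 and 0.0291 when either wild-type FBS replicate was left out), neither called.

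Ppard (chr17:28232700-28301474, plus strand) fell in atRA+PKCi in both genotypes. It was at 238 and 177 CPM in wild-type FBS against 71.3 and 62.4 in wild-type atRA+PKCi, and at 162 and 158 against 80.7 and 84.3 in the Rxra cKO libraries. Every atRA+PKCi library was below every FBS library. The change was -1.63 ± 0.13 (3.10-fold, adjusted p = 1.19e-05) in wild-type and -0.96 ± 0.13 (1.94-fold, adjusted p = 4.58e-04) in the Rxra cKO. The test of the difference between these changes gave 0.67 ± 0.18 (adjusted p = 0.0277), a smaller drop in the Rxra cKO; the call was lost without any 1 of the 4 Rxra cKO libraries or wild-type atRA+PKCi replicate 2 (0.58 to 0.74, adjusted p from 0.0583 to 0.0971). Between genotypes, Ppard was lower in Rxra cKO FBS (-0.37 ± 0.13, adjusted p = 0.0432), a call that was lost without wild-type FBS replicate 1 (-0.14, adjusted p = 0.240), either Rxra cKO FBS replicate (0.108 and 0.161) or either Rxra cKO atRA+PKCi replicate (0.0608 and 0.0729). In atRA+PKCi the difference was 0.30 ± 0.13 (adjusted p = 0.0929; 0.0347 with DESeq2, 0.00319 with no filter on low counts, and 0.00952 and 0.00961 when either wild-type FBS replicate was left out).

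Pparg (chr6:115360951-115490399, plus strand) was low and differed most with genotype among the receptors. It was at 1.39 and 1.58 CPM in wild-type FBS and 5.00 and 3.01 in wild-type atRA+PKCi, against 0.468 and 0.291 in Rxra cKO FBS and 0.210 and 0.335 in Rxra cKO atRA+PKCi. All 4 wild-type libraries were above all 4 Rxra cKO libraries. Pparg was 3.91-fold lower in the Rxra cKO in FBS (-1.97 ± 0.41, adjusted p = 0.00449) and 14.9-fold lower in atRA+PKCi (-3.89 ± 0.41, adjusted p = 9.60e-05). In wild-type it rose with atRA+PKCi (1.43 ± 0.34, adjusted p = 0.00708; 1.00 and 0.0623 without wild-type atRA+PKCi replicate 1), and in the Rxra cKO the media overlapped (-0.50 ± 0.48, adjusted p = 0.435). The interaction was -1.93 ± 0.59 (adjusted p = 0.0434; 0.0780 with mouse as a block, and 0.0506 to 0.179 without any 1 library other than wild-type atRA+PKCi replicate 2). The Rxra cKO groups had 22 and 17 counts in all, which limits the precision of these folds.

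Of the LXRs, Nr1h2 (chr7:44549616-44553951, minus strand) was the abundant one. It was at 65.1 and 65.9 CPM in wild-type FBS and 58.5 and 57.0 in wild-type atRA+PKCi, against 49.2 and 46.5 in Rxra cKO FBS and 49.97 and 52.3 in Rxra cKO atRA+PKCi. The lower level in Rxra cKO FBS was called (-0.45 ± 0.065, adjusted p = 6.61e-04) and that in atRA+PKCi was not (-0.17 ± 0.065, adjusted p = 0.0568; 0.0419 and 0.0433 when either wild-type FBS replicate was left out). The wild-type drop in atRA+PKCi was 1.13-fold (-0.18 ± 0.065, adjusted p = 0.0403) and was lost with mouse as a block (adjusted p = 0.0675) and with DESeq2 (0.0725). Without any 1 of the wild-type or Rxra cKO atRA+PKCi libraries its adjusted p was between 0.0531 and 0.185. The interaction was 0.28 ± 0.092 (adjusted p = 0.0576; 0.0427 with RLE factors and 0.0487 without Rxra cKO FBS replicate 1). Nr1h3 (chr2:91184061-91202834, minus strand) was near the floor, with totals of 5 counts in FBS and 21 in atRA+PKCi over both wild-type mice and 11 and 32 over both Rxra cKO mice, and no contrast of it was called (adjusted p from 0.0576 to 0.807).

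Abca1 (chr4:53030787-53159895, minus strand) rose with atRA+PKCi in both genotypes and was lower in the Rxra cKO in both media. It was at 4.31 and 2.97 CPM in wild-type FBS and 24.4 and 24.5 in wild-type atRA+PKCi, and at 1.47 and 2.11 and then 7.67 and 5.51 in the Rxra cKO libraries. No 2 groups overlapped. The rise with medium was 6.70-fold in wild-type (2.74 ± 0.22, adjusted p = 1.25e-05) and 3.68-fold in the Rxra cKO (1.88 ± 0.24, adjusted p = 3.52e-04), and the interaction was not called (-0.86 ± 0.33, adjusted p = 0.0931; called with no filter on low counts, -0.84 and 0.00717, and without wild-type FBS replicate 1, -1.15 and 0.0386). In atRA+PKCi, Abca1 was 3.68-fold lower in the Rxra cKO (-1.88 ± 0.21, adjusted p = 1.32e-04). In FBS it was 2.03-fold lower (-1.02 ± 0.26, adjusted p = 0.0120), and this call was lost when replicate 1 of wild-type FBS (-0.72, adjusted p = 0.0781) or of Rxra cKO FBS (-0.81, adjusted p = 0.0783) was left out.

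Angptl4 (chr17:33773750-33781830, minus strand) was higher in the Rxra cKO in both media. It was at 4.05 and 3.32 CPM in wild-type FBS and 1.83 and 1.46 in wild-type atRA+PKCi, and at 18.4 and 23.4 and then 14.8 and 15.7 in the Rxra cKO libraries. All 4 Rxra cKO libraries were above all 4 wild-type libraries, by 5.66-fold in FBS (2.50 ± 0.17, adjusted p = 9.85e-06) and 9.27-fold in atRA+PKCi (3.21 ± 0.18, adjusted p = 2.73e-06). It fell with atRA+PKCi in wild-type (-1.17 ± 0.20, adjusted p = 0.00104). In the Rxra cKO the drop of -0.45 ± 0.15 (adjusted p = 0.0362) was lost with DESeq2 (adjusted p = 0.0781), as it was without replicate 2 of Rxra cKO FBS (-0.27, 0.265) and without either replicate of Rxra cKO atRA+PKCi (-0.39 and -0.49, 0.198 and 0.118). The interaction was 0.71 ± 0.25 (adjusted p = 0.0672; 0.0178 with no filter on low counts, 0.0378 with mouse as a block, 0.0458 without wild-type FBS replicate 2 and 0.0422 without Rxra cKO FBS replicate 2).

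Plin2 (chr4:86648386-86670060, minus strand) moved in the same directions as Angptl4, with smaller differences between genotypes. It was at 169 and 167 CPM in wild-type FBS and 99.1 and 82.8 in wild-type atRA+PKCi, and at 241 and 242 and then 167 and 174 in the Rxra cKO libraries. The Rxra cKO was 1.44-fold higher in FBS (0.53 ± 0.086, adjusted p = 0.00136) and 1.87-fold higher in atRA+PKCi (0.91 ± 0.087, adjusted p = 5.73e-05). The drop with medium was -0.89 ± 0.087 in wild-type (adjusted p = 4.11e-05) and -0.51 ± 0.086 in the Rxra cKO (adjusted p = 0.00163). Their difference was 0.38 ± 0.12 and was not called (adjusted p = 0.0519). It was called with DESeq2 (0.41, 0.0138), with RLE factors (0.0411), with no filter on low counts (0.0117), with limma (0.0216 and 0.0222 at pseudocounts of 1 and 0.5), with mouse as a block (0.0442) and without wild-type atRA+PKCi replicate 1 (0.0107).

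Between genotypes, 6 of the 8 genes changed in FBS (2 higher, 4 lower), against 42.8% of all genes, and 4 of 8 in atRA+PKCi (2 higher, 2 lower), against 43.2%. In both media the higher ones were Angptl4 and Plin2, and Pparg and Abca1 were among the lower. The medium effect differed between genotypes for 2 of 8, Ppard and Pparg, against 24.6% of all genes. The medians over the 8 genes were -0.14 in FBS, 0.24 in atRA+PKCi and 0.18 for the interaction, and those over all genes were 0.02, 0.00 and -0.01.

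**Figure D2:**
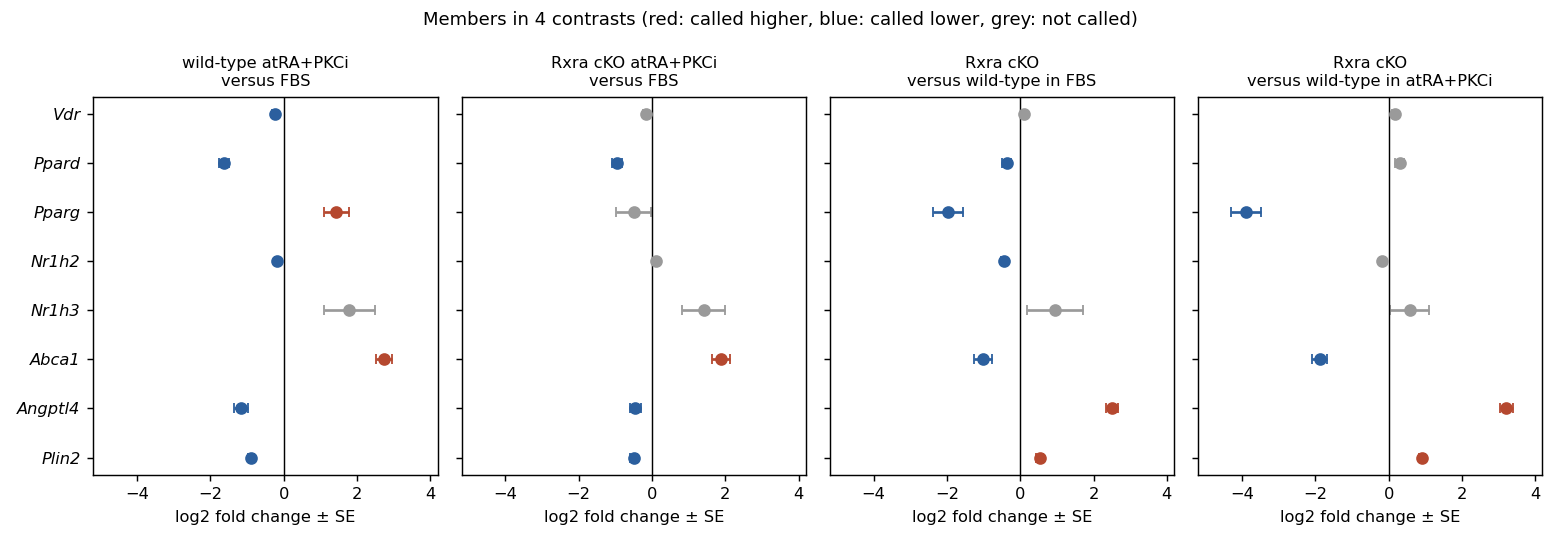
Log2 fold changes (x axis, points, ± SE as bars) of the 8 genes tested in the 4 contrasts of group means. Angptl4 lies at 2.50 and 3.21 and Pparg at -1.97 and -3.89 in the 2 genotype contrasts, and Abca1 lies at 2.74 and 1.88 in the 2 medium contrasts.

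Other cell states moved with the groups. The summed level of 7 suprabasal epidermis markers was 4195 to 4445 CPM in FBS and 287 to 290 in atRA+PKCi for the wild-type, 2238 to 2796 in Rxra cKO FBS and 798 to 855 in Rxra cKO atRA+PKCi, and all 7 passed the filter. Ppard shared the order of these sums over the 4 groups. Krt10 and Krt1, the markers of this list that were read singly, did not follow it. In the Rxra cKO, Krt10 was 8.36 to 8.59 CPM in FBS and 22.9 to 29.8 in atRA+PKCi. Krt1 was 2.88 to 3.02 CPM in Rxra cKO FBS and 33.5 to 43.4 in Rxra cKO atRA+PKCi. The 7 sebaceous markers, of which 5 passed, summed to 534 to 579, 300 to 307, 424 to 433 and 207 to 224 CPM in the same order. The part of these states in the results was not tested. Fat markers were near 0, with a sum of at most 0.298 CPM over 7 genes and 2 to 5 of them at 0 in a group. The sums were 1.32 to 11.6 CPM over 6 fibroblast markers (5 passed, Lum at 0), at most 1.86 over 7 immune markers (1 passed, 3 to 6 at 0), 1.73 to 5.18 over 6 endothelial markers and 0.348 to 0.770 over 5 melanocyte markers.

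Other genes that PPARs control, from a list of 32 on fatty acid uptake, oxidation and storage, were more often called higher than lower in the Rxra cKO. Of 24 tested, 12 were higher and 1 lower in the Rxra cKO in atRA+PKCi (median 0.26), against 23.0% higher and 20.2% lower of all genes. In FBS, 10 were higher and 6 lower (median 0.17), against 22.3% and 20.5% of all genes. Vnn1, a pantetheinase that rises in fasted liver, was at 13.2 CPM in both Rxra cKO atRA+PKCi libraries against 0.128 and 0.222 in wild-type atRA+PKCi (6.201 ± 0.26, adjusted p = 5.41e-07). In FBS, Vnn1 was at 1.69 and 2.04 CPM in the Rxra cKO, against 1 count in each wild-type library. Ehhadh, a peroxisomal oxidation enzyme, was at 4.43 and 4.47 CPM against 0.158 and 0.545 in atRA+PKCi (3.65 ± 0.46, adjusted p = 2.64e-04) and at 2.20 and 2.91 against 0.0386 and 0.109 in FBS (adjusted p = 2.32e-04).
The lower one in both media was Lipe, which encodes hormone-sensitive lipase: -1.32 ± 0.098 in FBS and -1.22 ± 0.11 in atRA+PKCi (adjusted p = 1.72e-05 and 3.53e-05). Fabp5, the epidermal fatty acid-binding protein, was lower in FBS, at 2372 and 2863 CPM against 6497 and 6995 (-1.37 ± 0.10, adjusted p = 1.81e-05).

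With atRA+PKCi, 11 of the 24 rose and 6 fell in wild-type (median 0.19), against 27.2% and 26.6% of all genes, and 12 rose and 3 fell in the Rxra cKO (median 0.35), against 20.8% and 22.2%. Ucp2, a mitochondrial carrier, rose from 3.63 and 5.66 CPM to 83.8 and 98.1 in wild-type (4.28 ± 0.16, adjusted p = 1.09e-07) and was at 40.0 and 41.2 and then 154 and 159 in the Rxra cKO, a smaller change (interaction -2.34 ± 0.21, adjusted p = 1.07e-04). Acot1, an acyl-CoA thioesterase, behaved alike, with 3.94 ± 0.27 in wild-type and an interaction of -1.95 ± 0.34 (adjusted p = 0.00406). Fabp4, the fatty acid-binding protein known from fat, fell from 320 and 412 to 9.98 and 10.6 CPM in wild-type (-5.15 ± 0.16, adjusted p = 4.33e-08) and from 157 and 190 to 14.5 and 16.7 in the Rxra cKO (-3.48 ± 0.15, adjusted p = 7.95e-07). Lipe fell in both (-1.75 ± 0.10 and -1.65 ± 0.11), and Lpl, lipoprotein lipase, rose in the Rxra cKO (2.07 ± 0.20, adjusted p = 5.43e-05) with an interaction of 2.10 ± 0.27 (adjusted p = 7.81e-04). For the interaction, 6 of 24 were higher and 4 lower, against 13.3% and 11.3% of all genes.

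Of 15 other LXR-controlled genes, 13 were tested. In the Rxra cKO, 1 was higher and 9 lower in FBS (median -0.75; 22.3% and 20.5% of all genes), and 3 were higher and 6 lower in atRA+PKCi (median -0.22; 23.0% and 20.2% of all genes). Scd2, a fatty acid desaturase, was at 195 and 202 CPM against 642 and 789 in FBS (-1.85 ± 0.10, adjusted p = 4.09e-06). Mylip, which degrades the LDL receptor, was at 13.9 and 14.5 CPM against 30.2 and 31.5 in atRA+PKCi (-1.12 ± 0.098, adjusted p = 3.33e-05), and Acsl3, an acyl-CoA synthetase, was -1.38 ± 0.095 there (adjusted p = 8.43e-06). Smpdl3a, a phosphodiesterase, was higher in the Rxra cKO in both media, at 4.46 and 4.73 CPM against 0.620 and 0.657 in FBS and at 7.96 and 8.08 against 0.285 and 0.353 in atRA+PKCi (4.64 ± 0.22, adjusted p = 1.00e-06).
Abcg1, the partner of Abca1 in cholesterol efflux, did not follow it. It fell with atRA+PKCi from 13.1 and 14.3 to 0.160 and 0.253 CPM in wild-type (-6.02 ± 0.28, adjusted p = 3.45e-07) and from 4.21 and 4.57 to 0.393 and 0.633 in the Rxra cKO (-3.13 ± 0.25, adjusted p = 1.94e-05), while Abca1 rose. Pltp, a phospholipid transfer protein, rose as Abca1 did, from 24.2 and 28.1 to 106 and 112 CPM in wild-type (2.06 ± 0.083, adjusted p = 1.54e-07) and from 14.5 and 14.9 to 71.8 and 72.4 in the Rxra cKO (2.29 ± 0.086, adjusted p = 3.97e-07), and Mylip rose by 1.58 ± 0.10 and 1.57 ± 0.11. With medium, 3 of 13 rose and 5 fell in wild-type (median 0.10; 27.2% and 26.6% of all genes), 7 rose and 3 fell in the Rxra cKO (median 0.48; 20.8% and 22.2%), and 6 were higher and 0 lower for the interaction (13.3% and 11.3%).

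**Figure D3:**
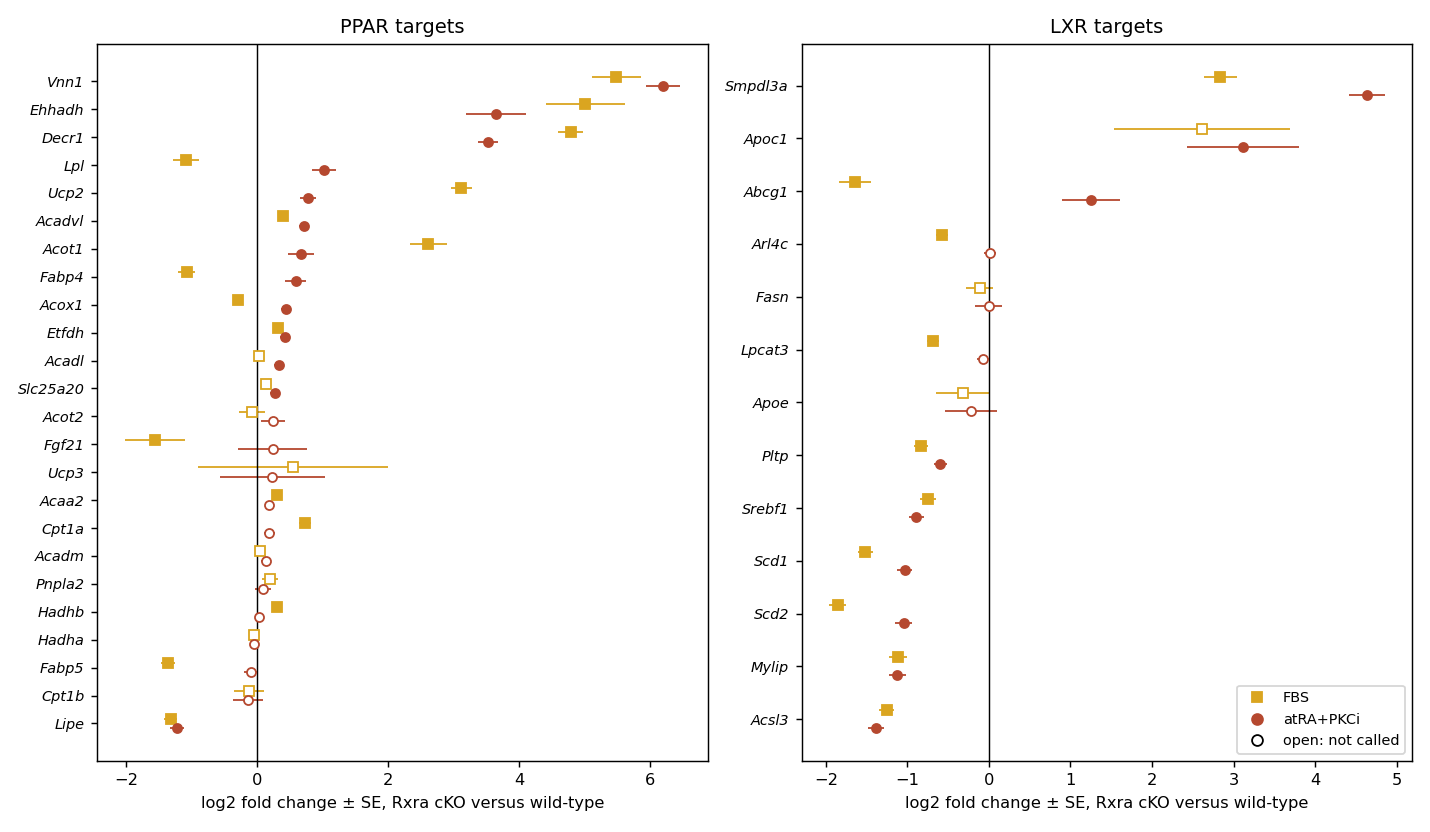
Log2 fold changes of Rxra cKO versus wild-type (x axis, ± SE) for the 24 PPAR-controlled and 13 LXR-controlled genes tested, in FBS (squares) and atRA+PKCi (circles), with open symbols for genes that were not called. Vnn1 and Ehhadh lead the first panel, and Smpdl3a stands against Acsl3 and Mylip in the second. Folds of Vnn1, Ehhadh, Ucp3 and Apoc1 rest on 0 to 2 counts in some wild-type libraries.

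Of 8 other vitamin D genes, 5 were tested. Hr, a corepressor that binds Vdr in the hair cycle, was at 96.6 and 132 CPM in wild-type FBS and 164 and 169 in Rxra cKO FBS (0.55 ± 0.12, adjusted p = 0.00673), and fell to 76.8 and 78.3 and to 78.9 and 80.0 in atRA+PKCi. Its drop with medium was -0.56 ± 0.12 in wild-type and -1.07 ± 0.12 in the Rxra cKO (adjusted p = 0.00468 and 1.78e-04). Pdia3, a protein disulfide isomerase, fell by 0.48 and 0.35 on the log2 scale. In the medium contrasts, 1 of the 5 rose and 2 fell in wild-type, near the 53.9% of all genes called, and 2 rose and 2 fell in the Rxra cKO (43.0% of all genes called). In the Rxra cKO, 2 were higher and 0 lower in FBS, and 1 was higher and 0 lower in atRA+PKCi. Of all genes, 22.3% and 23.0% were higher (42.8% and 43.2% called either way). None of the 5 passed the interaction (24.6%).

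To place the 10 genes in intact skin, levels were read in the 2 wild-type mice at postnatal day 32. The sort kept CD45-, CD31-, CD140a- and CD117-negative cells, and 27028 cells passed, in 37 clusters. The clusters were made without the 10 genes and grouped into 28 classes with at least 20 cells in each mouse, of which 14 took a name from marker genes ("-like") and the others are called by their leading genes. Despite the sort, the fibroblast-like class was the largest (9022 cells), and some of its clusters held mostly cells of 1 mouse. The 2 libraries shared 62 barcodes. Levels are CPM of summed UMIs, the mean of the 2 mice with both values, and carry no test, since a class is defined by the same cells. Droplets also hold free RNA, so a cluster led by hemoglobin genes (Hbb-bt, Hba-a1, Hbb-bs), which should lack most of these transcripts, stands beside them.

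**Figure D4:**
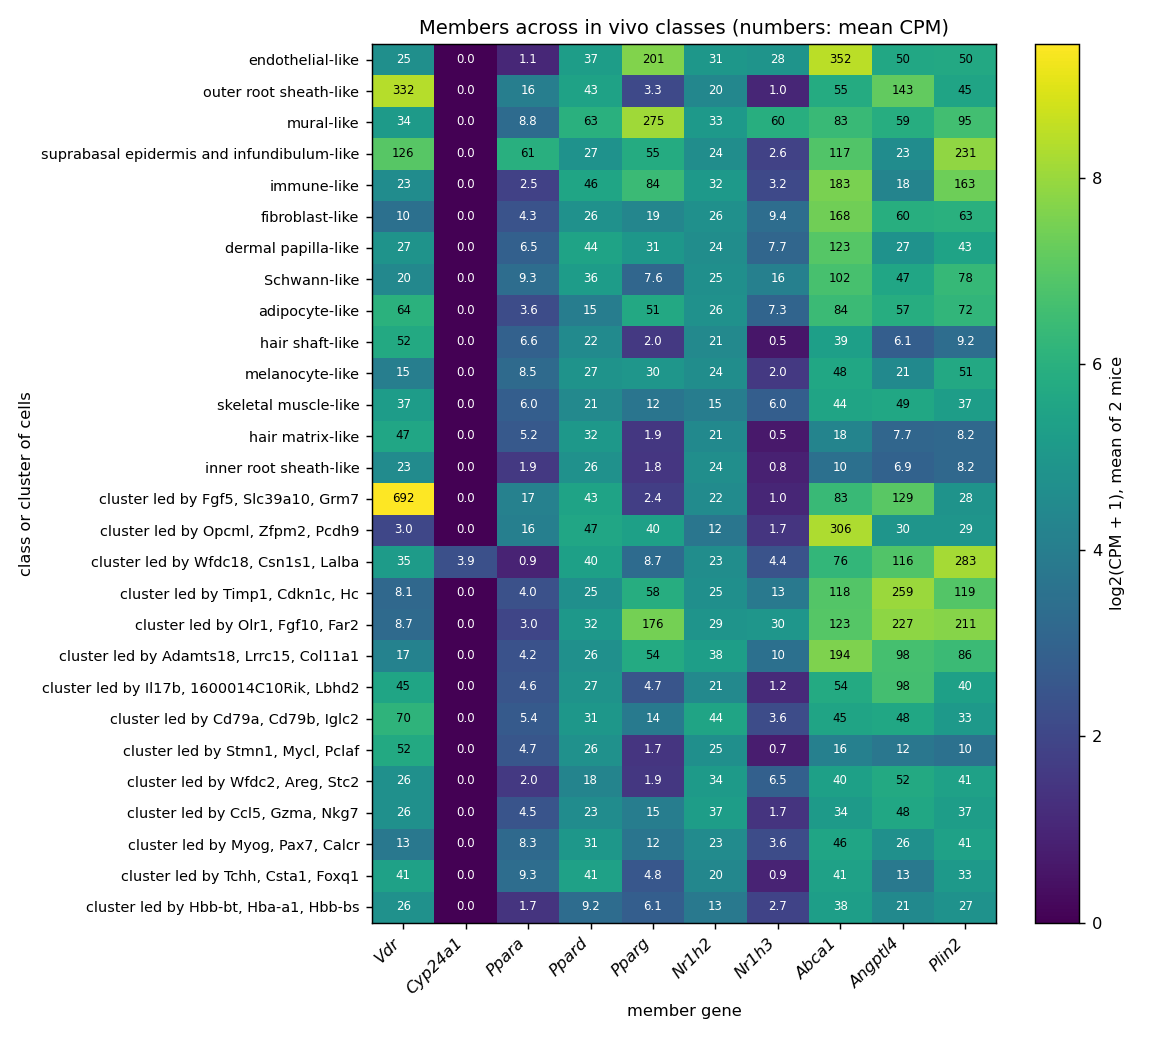
Mean level of the 10 genes (columns) in 28 classes or clusters of in vivo cells (rows). The color is log2 of CPM plus 1 and the number is the mean CPM of 2 mice. Vdr is highest in the cluster led by Fgf5 (692), Pparg in mural-like (275) and Abca1 in endothelial-like cells (352).

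Vdr was highest in the cluster led by Fgf5, Slc39a10 and Grm7 (692 CPM, 658 and 726), then in outer root sheath-like (332, 316 and 348) and suprabasal-like cells (126, 125 and 127), against 26.4 in the hemoglobin cluster and 10.2 in fibroblast-like cells. These 3 upper steps did not overlap between neighbors, and 10 of 28 classes were above the hemoglobin cluster (33.4 at most) in both mice. Its most alike gene over the 28 classes was Tenm2 (Pearson r = 0.88 on log2 of CPM plus 1; the classes share libraries). Cyp24a1, its target, had 5 UMIs among all cells, all in mouse 1 and in the cluster led by the milk genes Wfdc18, Csn1s1 and Lalba, and 0 UMIs in mouse 2.

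The PPARs were highest in different classes. Ppara was highest in suprabasal-like cells (61.3 CPM, 44.0 and 78.7) and next in the Fgf5 cluster (16.7), with no overlap, against 1.70 in the hemoglobin cluster. Ppard was spread, from 62.8 in mural-like cells (59.3 and 66.3) to 9.19 in the hemoglobin cluster, 25 of 28 classes were above that cluster in both mice, and only the first step in the order did not overlap.
Pparg was highest in mural-like (275, 155 and 396), endothelial-like (201, 159 and 242) and Olr1, Fgf10 and Far2 cells (176, 156 and 196), whose ranges overlapped. It was at 84.4 in immune-like, 50.6 in adipocyte-like and 3.26 in outer root sheath-like cells, the last under the 6.06 of the hemoglobin cluster. The adipocyte-like class held 20 cells of mouse 1 and 337 of mouse 2. No cluster took its name from the sebaceous markers, so Pparg in sebaceous cells was not read apart. The most alike genes were Gpc4 for Ppara (r = 0.78), Nek9 for Ppard (0.79) and A4galt for Pparg (0.85).

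Of the LXRs, Nr1h2 varied less than Nr1h3. It was highest in the cluster led by the B cell genes Cd79a, Cd79b and Iglc2 (44.2 CPM, 39.7 and 48.6, on 27 UMIs). Its lowest level was 11.98 in the cluster led by Opcml. Of its 27 steps in order, 25 overlapped, as many as for Pparg. Nr1h3 was highest in mural-like cells (59.6, 44.2 and 75.1), with no overlap with the Olr1 cluster (30.5) and endothelial-like cells (28.2), and was at 0.545 in hair matrix-like and 0.468 in hair shaft-like cells, against 2.72 in the hemoglobin cluster. The most alike genes were Mfap1b for Nr1h2 (r = 0.84) and Sparcl1 for Nr1h3 (0.94).

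Abca1 was highest in endothelial-like cells (352 CPM, 351 and 353) and the cluster led by Opcml, Zfpm2 and Pcdh9 (306, 293 and 319), was at 168 in fibroblast-like cells, and was lowest in inner root sheath-like cells (10.2). The hemoglobin cluster was at 38.3. Angptl4 led in the cluster of Timp1, Cdkn1c and Hc (259, 238 and 280) and the Olr1 cluster (227, 178 and 277), which overlapped, and was at 143 in outer root sheath-like cells (138 and 149). In the milk-gene cluster it was 14.0 in one mouse and 219 in the other. Plin2 was highest in that milk-gene cluster (283, 253 and 313), in suprabasal-like cells (231, 157 and 305) and in the Olr1 cluster (211, 200 and 221), which overlapped. Hair matrix-like and inner root sheath-like cells were lowest in Plin2 (8.18 and 8.17) and at 7.71 and 6.86 in Angptl4, below the hemoglobin cluster. The most alike genes were Acvrl1 for Abca1 (r = 0.85), Plekhf1 for Angptl4 (0.85) and Fos for Plin2 (0.80).
Over all cells, mouse 2 was higher than mouse 1 in Angptl4 (90.2 against 53.9 CPM), Pparg (36.02 against 17.4) and Abca1 (112 against 87.4), which mixes class sizes with levels.

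In culture, single cells of the same 2 mice were tagged by condition. Of 449 and 208 barcodes, 213 and 73 were singly tagged and passed the filters, and 4 conditions had at least 5 cells in each mouse: B-27 medium alone (5 and 9 cells), BMP2/4 (108 and 13), Rspo+BMP2/4 (91 and 25) and Rspo+BMP2/4+RARi (5 and 21). The last 3 also hold atRA+PKCi, and RARi is a retinoic acid receptor inhibitor. UMIs were summed per mouse and condition, and edgeR was run on 7407 genes, and a call needed an adjusted p under 0.01 and a log2 fold change beyond 1 in either direction. Of the 10 genes, 4 (Vdr, Ppard, Nr1h2 and Plin2) passed the filter. Free RNA was not removed from these counts.

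Ppard was lower in BMP2/4 than in B-27, the 1 of 4 called, against 4.89% of all genes. In B-27 its sums were 323 and 218 CPM (from 61 and 46 UMIs), and it was at 42.3 and 50.9 in BMP2/4, 55.02 and 74.1 in Rspo+BMP2/4, and 104 and 92.9 with RARi. The B-27 sums lay above those of the other 3 conditions compared, and the drop to BMP2/4 was -2.39 ± 0.42 (adjusted p = 0.00132). The call was lost without B-27 replicate 1 (-2.18, adjusted p = 0.0181), BMP2/4 replicate 1 (-2.32, 0.120) or BMP2/4 replicate 2 (-2.39, 0.0620), where a condition keeps 1 sum.

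Vdr was at 37.0 and 23.7 CPM in B-27 and 30.5 and 47.0 in BMP2/4 (0.42 ± 0.52, adjusted p = 0.632). Plin2 was at 217 and 33.1 in B-27, a wide spread, against 84.6 and 95.9 in BMP2/4 (-0.27 ± 0.58, adjusted p = 0.794), and Nr1h2 at 26.5 and 14.2 against 21.2 and 50.9 (0.80 ± 0.71, adjusted p = 0.511). For Rspo+BMP2/4 against BMP2/4, and with RARi against without, 0 of 4 were called, against 0% of all genes by edgeR (77 and 287 of 7407 genes at an unadjusted p under 0.05, and 0 genes by DESeq2 too). With RARi, Plin2 was at 20.8 and 48.1 CPM against 55.8 and 111 without (-1.07 ± 0.63, adjusted p = 0.959), and Ppard differed by 0.43 ± 0.43 (adjusted p = 0.959).
The others were at or near 0: Cyp24a1 had no UMI, Abca1 1, Ppara 2, Nr1h3 3, Pparg 10 and Angptl4 17 over all conditions. In BMP2/4 of mouse 1, 0 UMIs of Abca1 in 108 cells allow up to 1.04 CPM (exact 95% Poisson interval, counting error only).

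**Figure D5:**
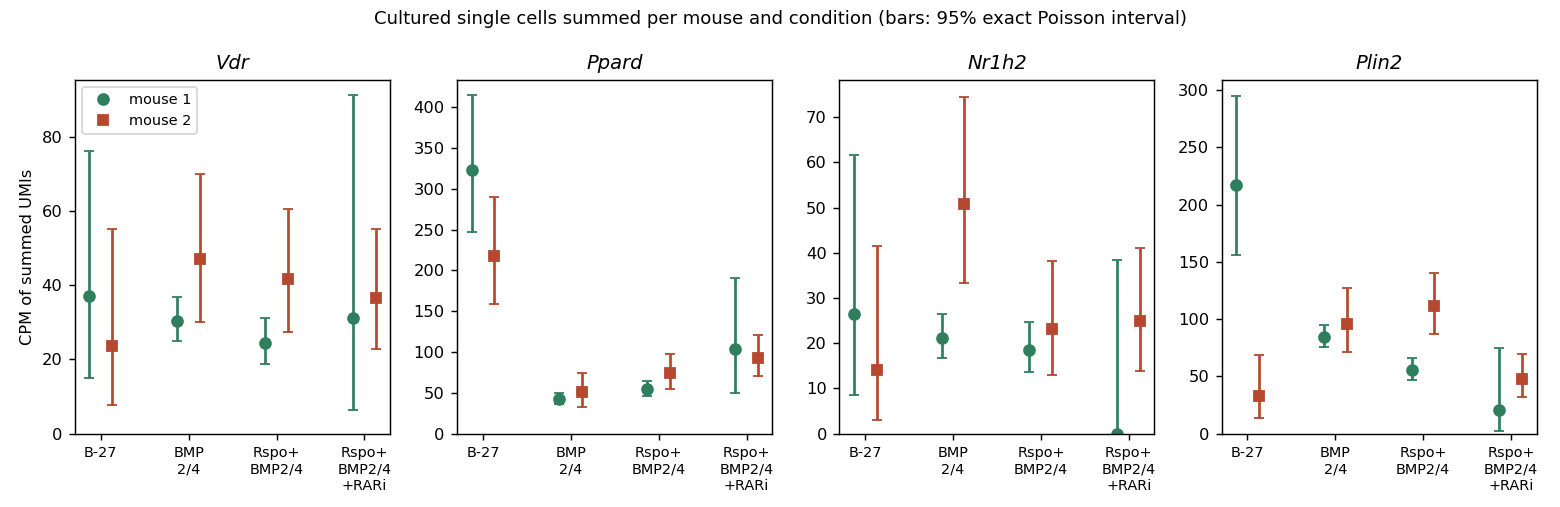
The 4 genes tested in cultured single cells, as CPM of UMIs summed per mouse (circles, mouse 1; squares, mouse 2) and condition, with exact 95% Poisson intervals that cover counting error only. Ppard is at 323 and 218 CPM in B-27 and at 42.3 to 104 in the other 3 conditions plotted, and Plin2 in B-27 spans 33.1 to 217.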

How the data were processed

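RNA-seq of 8 HFSC cultures (2 per group) and single cell RNA-seq of skin and of cultured HFSCs (2 matrices each) were used, of 27 samples; 8 ATAC-seq and 5 CUT&RUN samples were not analysed here. The authors deposited estimated counts per gene, made with Salmon 1.4.0 and tximport on mm10 without normalization (25150265 to 35879777 per library). A second deposited table holds a normalized signal per gene, of the kind DESeq2 gives, and served in alternatives only. The single cell matrices that the authors deposited hold whole UMI counts per gene from Cell Ranger, from which neither free RNA nor doublets had been taken out. Positions and exonic lengths are from GENCODE M21 (GRCm38), and promoters from RefSeq (GRCm38.p6).

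The 10 genes and the pathway lists were chosen with earlier results of these data known. Estimated counts were rounded and tested with edgeR 4.0.16 in R 4.3.3 (TMM, filterByExpr, quasi-likelihood test, 1 fit of 4 group means, Benjamini-Hochberg over 15965 genes, adjusted p under 0.05). Log2 fold changes carry standard errors. With 2 libraries per group, p-values rest on a spread between cultures that is shared over the 4 groups and over genes. A library outside a contrast can therefore change its p-value. The main fit treats the cultures of 1 mouse in the 2 media as independent. Libraries of 1 group differed by more than counting error (mean chi-square per gene of 5.79 to 26.5). The tissue labels name mouse 1 or 2 for each library, so within a genotype the numbers pair the media. Same-numbered libraries deviated together with a correlation of 0.112 in wild-type and -0.00219 in the Rxra cKO, and of 0.0694 and 0.00515 across genotypes, and the fit with mouse as a block is given where it changes a call.

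Cells were kept with at least 500 genes, at least 1000 UMIs and a mitochondrial share under 10%. HTODemux of Seurat 5.3.0 (quantile 0.99) gave the hashtag calls, and doublets were found with Scrublet in scanpy 1.11.5 (5.88% and 3.56% of in vivo cells were removed). In vivo cells (median 8869 and 10594 UMIs) were clustered over 30 components and 15 neighbors with igraph 0.11.9 (Leiden, resolution 1.0). All barcodes of the cultured matrices, before the filters, had medians of 22215 and 11475 UMIs. Their median mitochondrial shares were 8.36% and 11.1%, and 262 of 449 and 94 of 208 barcodes passed the filters. Scripts were tested on simulated data. Named genes are the 10, the RXRs, up to 2 called genes at each end of every list and contrast with a mean of at least 1 CPM, and the most alike gene of each of the 10 over classes (at least 10 CPM in a class). Alternatives were DESeq2 1.42.0, RLE factors, no filter on low counts, limma 3.58.1 on the normalized signal (pseudocount 1 or 0.5), a stricter or looser threshold, leaving out each replicate, mouse as a block, a fit of the 4 libraries compared, other hashtag and cell filters, doublets kept and resolution 1.5.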

Additional observations from a re-analysis of the deposited data

Results flagged for a closer look

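The change of Ppard and of Pparg with medium differed between the genotypes by the interaction test in edgeR. For Ppard, which binds fatty acids, the interaction was 0.67 ± 0.18 (log2, adjusted p = 0.0277): its level fell 3.10-fold with atRA+PKCi in wild-type and 1.94-fold in the libraries labelled Rxra cKO, in 2 of 2 mice each. Across the alternatives it lay between 0.45 and 0.88 (adjusted p from 5.03e-07 to 0.0971), and the call was lost with limma at a pseudocount of 0.5 (0.71, 0.0513), without wild-type atRA+PKCi replicate 2 (0.58, 0.0940), Rxra cKO FBS replicate 1 (0.74, 0.0583) or 2 (0.66, 0.0825), and Rxra cKO atRA+PKCi replicate 1 (0.74, 0.0586) or 2 (0.65, 0.0971).

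For Pparg it was -1.93 ± 0.59 (adjusted p = 0.0434): the level rose 2.69-fold in wild-type and was -0.50 ± 0.48 on the log2 scale in the Rxra cKO, where the media overlapped. Across the alternatives it lay between -2.26 and -0.87 (adjusted p from 0.00721 to 0.439). The call was lost with DESeq2 (-1.90, 0.0867), with mouse as a block (-1.89, 0.0780), with limma on the authors' normalized values and without any single library other than wild-type atRA+PKCi replicate 2 (-2.26 to -1.47, adjusted p from 0.0506 to 0.179). The cause of these losses was not tested.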

How the results depend on the processing

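Of 613 values of single genes in other settings of the RNA-seq contrasts, 513 kept direction and side of the threshold, 61 lost a call, 29 gained one and 10 reversed. The reversed ones were not called. With limma on the authors' normalized values (pseudocount 1, then 0.5), Pparg in Rxra cKO atRA+PKCi versus FBS was 0.64 and 0.66, and Nr1h3 was -0.78 and -0.87 between genotypes in FBS, -0.26 and -0.28 in atRA+PKCi, and 0.52 and 0.60 for the interaction. The Nr1h3 interaction was -0.80 to 0.39 with 1 library left out, and 0.06 without wild-type atRA+PKCi replicate 1. With the stricter call (adjusted p under 0.01 and a log2 fold change beyond 1 either way), genes of the 10 called were 4, 1 and 2 for medium in wild-type, medium in the Rxra cKO and genotype in FBS, and 0 for the interaction (3 for genotype in atRA+PKCi), and all genes called were 2960, 1858, 1761, 1134 and 2081 in that order. For the interaction, 4 of the 8 were called with RLE factors, 5 with no filter and 1 with limma at a pseudocount of 0.5. In genotype in atRA+PKCi, 7 were called without wild-type FBS replicate 1 or 2, or with only the 4 libraries compared. With 1 library left out, calls among the 8 were 5 to 7, 3 to 5, 4 to 6, 4 to 7 and, for the interaction, 0 to 2 (0 without Rxra cKO atRA+PKCi replicate 1 or 2), and calls over all genes 7097 to 8459, 4543 to 7614, 5301 to 6657, 4734 to 7572 and 2392 to 4335. The replicate block changed no call other than those given in the report. The cause of these changes was not tested.

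In cultured cells, with 1 sum left out, 0 to 1 of the 4 genes and 28 to 203 genes in all (362 otherwise) were called in BMP2/4 versus B-27; all genes called were 546 with no filter, 669 with tags by share of counts and 685 at adjusted p under 0.05. In the other contrasts 10 genes each were called with no filter, and 0 to 1 and 0 to 21 with 1 sum left out. Reversed values were not called: Plin2 in BMP2/4 versus B-27 (-1.01 to 1.496 with 1 sum left out, the highest without B-27 replicate 1), Vdr (-0.55 to 0.0077) and Plin2 (-0.63 to 0.15) in Rspo+BMP2/4 versus BMP2/4, and with RARi Vdr with the replicate block (-0.067), no filter (-0.056), tags by share (-0.23) or 1 sum left out (-0.38 to 0.30), and Nr1h2 with tags by share (0.11) or 1 sum left out (-7.44 to 0.28). The stricter cell filter left under 5 cells in a mouse and gave no value. In vivo, 42 of 50 levels in the highest class moved by no more than the standard deviation of the 2 mice. The 50 include levels with 1 mouse left out, which cannot pass that bound while the class stays the same. The 8 that moved all came from the stricter cell filter, doublets kept or resolution 1.5. Vdr was 595 CPM with 1000 or more genes and under 5% mitochondrial UMIs, 564 with doublets kept and 590 at resolution 1.5. Abca1 was 349 and 316 and Ppard 54.7 with the first or second of these, and Ppara was 98.5 and Plin2 550 at resolution 1.5, in other clusters. Few counts limit the precision for Cyp24a1, Ppara and Nr1h3 in bulk and for Pparg and Angptl4 in cultured cells.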

Other observations

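Of 10 other receptors that pair with RXR, 8 were tested. With atRA+PKCi, 2 rose and 5 fell in wild-type (53.9% of all genes called), and 3 rose and 2 fell in the libraries labelled Rxra cKO (43.0%). In the Rxra cKO, 1 was higher and 5 lower in FBS (42.8% of all genes called), and 3 were higher and 3 lower in atRA+PKCi (43.2%). For the interaction, 3 were higher and 0 lower (24.6%). Nr1h4, the bile acid receptor, was at 8.14 and 8.38 CPM in wild-type FBS and 0.190 and 0.225 in wild-type atRA+PKCi (-5.29 ± 0.40, adjusted p = 7.17e-06), against 1.01 and 1.43 in Rxra cKO FBS (-2.76 ± 0.32 between genotypes, adjusted p = 2.02e-04). Nr4a1, an immediate early receptor, fell with atRA+PKCi from 27.9 and 34.3 to 12.3 and 13.3 CPM in wild-type and rose from 10.4 and 11.9 to 22.0 and 23.4 in the Rxra cKO (interaction 2.31 ± 0.17, adjusted p = 4.21e-05). Rara, a retinoic acid receptor, was higher in the Rxra cKO in FBS (0.64 ± 0.15, adjusted p = 0.00766) and in atRA+PKCi (0.62 ± 0.14, adjusted p = 0.00672). Thrb, a thyroid hormone receptor, was lower in both (-1.52 ± 0.25 and -0.75 ± 0.25).

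All 8 coregulators listed were tested. With atRA+PKCi, 5 rose and 0 fell in each genotype, against 27.2% of all genes higher in wild-type and 20.8% in the Rxra cKO. In the Rxra cKO, 3 were lower and 0 higher in each medium. Of all genes, 20.5% in FBS and 20.2% in atRA+PKCi were lower (42.8% and 43.2% called either way). Ppargc1a, a coactivator of the PPARs, was listed at 0 counts in wild-type FBS and at 2.60 and 3.39 CPM in wild-type atRA+PKCi, and at 0 and 0.0360 and then 1.60 and 1.68 in the Rxra cKO. Nrip1, a corepressor known to be induced by retinoic acid, rose from 136 and 154 to 362 and 385 CPM in wild-type (1.37 ± 0.079, adjusted p = 1.48e-06), and its rise was smaller in the Rxra cKO (interaction -0.98 ± 0.11, adjusted p = 3.96e-04). Ncoa3, a coactivator, was lower in the Rxra cKO in FBS (-1.13 ± 0.093, adjusted p = 2.76e-05) and in atRA+PKCi (-1.20 ± 0.091, adjusted p = 1.50e-05). In skin, Rxrg was at 65.7 CPM in Schwann-like cells (63.2 and 68.2) and at 13.9 in skeletal muscle-like cells, with no overlap.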
